A study of Homo sapiens with 4 samples.

Results

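RAB genes encode small GTPases that mark the membranes of a cell. The 63 members described here are the protein-coding RefSeq genes whose symbol is RAB followed by a number, with or without 1 final letter, out of 20037 protein-coding genes on the assembled chromosomes. SPIB, an ETS-family transcription factor, was mapped by ChIP-seq (sequencing of DNA bound by an immunoprecipitated protein) in H1703, an established human lung squamous carcinoma line that overexpressed SPIB. The groups were suspended cells and attached cells, each with 1 ChIP made with the ANTI-FLAG M2 antibody and 1 input, and SPIB was overexpressed in both. The treatment text names 24 h of suspension for every library, so the titles were used to tell the groups apart. Neither condition was replicated, and suspended and attached cells were compared without a significance test.

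A RAB protein switches between a GTP-bound form, which recruits effectors such as tethers and motor adaptors to a membrane, and a GDP-bound form, which GDI proteins carry through the cytosol. Exchange factors load GTP, and GTPase-activating proteins switch the RAB off again. RAB1 and RAB2 proteins work between the endoplasmic reticulum and the Golgi, RAB3 and RAB27 in secretion, RAB5 on early endosomes, RAB4 and RAB11 in recycling, and RAB7 on late endosomes, lysosomes and autophagosomes that fuse with them.

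The ChIP libraries held 20766909 filtered tags from suspended and 21108364 from attached cells, and the authors' lists held 9024 and 462 peaks. The authors' false discovery rate (FDR, from calling peaks with ChIP and input exchanged) was at most 6.42% for every suspended peak. It was 100% for 305 attached peaks (66.0%). Signal in attached cells at genes without an attached peak was not measured here, so such genes are not shown to be free of SPIB.

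The stretches below are the parts of RefSeq promoter windows (GRCh38.p14, 250 bases before to 50 after a start) of RAB genes and their antisense genes that lie inside suspended peaks, with RAB7A added as a start with no peak. They are shown because SPIB belongs to the ETS family, whose members are known to bind around the letters GGAA. Capitals mark GGAA on either strand (TTCC where it lies on the other strand). The RAB11B-AS1 window (chr19:8390642-8390941, minus strand) lies wholly in the RAB11B peak and holds its summit, 17 bp from the start of this antisense gene. The RAB5C window (chr17:42154940-42155239, minus) lies wholly in the RAB5C peak. Of RAB32 (chr6:146543583-146543622, plus) 40 bases lie in the peak, and of RAB4A-AS1 (chr1:229271329-229271404, minus) 76 do. RAB7A is at chr3:128725933-128726232, plus strand.
RAB11B-AS1: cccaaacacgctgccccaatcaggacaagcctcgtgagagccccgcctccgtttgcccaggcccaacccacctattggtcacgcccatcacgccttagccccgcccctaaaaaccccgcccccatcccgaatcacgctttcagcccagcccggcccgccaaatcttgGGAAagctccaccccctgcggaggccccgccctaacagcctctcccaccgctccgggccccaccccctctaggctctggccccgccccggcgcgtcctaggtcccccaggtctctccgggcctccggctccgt
RAB5C: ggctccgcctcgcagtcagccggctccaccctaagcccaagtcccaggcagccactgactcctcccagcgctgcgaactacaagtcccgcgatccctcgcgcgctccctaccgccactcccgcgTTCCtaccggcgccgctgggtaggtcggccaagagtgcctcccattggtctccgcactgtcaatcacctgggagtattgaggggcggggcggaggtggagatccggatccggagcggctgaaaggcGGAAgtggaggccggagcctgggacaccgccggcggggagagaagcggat
RAB32: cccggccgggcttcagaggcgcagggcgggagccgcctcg
RAB4A-AS1: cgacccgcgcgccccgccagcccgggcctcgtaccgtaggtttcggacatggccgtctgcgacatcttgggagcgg
RAB7A: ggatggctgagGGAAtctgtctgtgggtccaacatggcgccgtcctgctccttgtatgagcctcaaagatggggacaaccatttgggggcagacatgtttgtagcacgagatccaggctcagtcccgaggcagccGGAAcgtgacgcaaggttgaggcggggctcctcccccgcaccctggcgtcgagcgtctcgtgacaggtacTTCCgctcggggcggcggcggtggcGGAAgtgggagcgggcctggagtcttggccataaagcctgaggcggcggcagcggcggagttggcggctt

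Whole windows of 300 bases were then counted on both strands at the 5 RAB starts with a suspended summit within 1 kb. They held 6 GGAA words in RAB11B, 3 in RAB4A, 2 each in RAB5C and RAB8A and 1 in RAB32. Only the RAB5C window (300 bases) and the RAB32 window (40 bases) touch a peak. The windows of RAB4A, RAB8A and RAB11B lie outside their peaks. The RAB7A window, with no peak, held 4, and the windows of all protein-coding genes held a median of 3. The longer word CGGAAGT, which contains GGAAGT and GGAA, occurred 1 time in RAB5C and 2 times in RAB7A. It was absent from the windows of RAB4A, RAB8A, RAB11B and RAB32. The printed stretches of RAB32 and RAB4A-AS1 hold no GGAA, but they are short.

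In suspended cells 18 of the 63 RAB genes (28.6%, Clopper-Pearson 95% interval 17.9 to 41.3) had a peak summit within the gene or its 5 kb flanks. Among all protein-coding genes 5733 of 20037 (28.6%) did, and among other protein-coding genes of the same gene spans 29.5% did. Within 1 kb of a gene end, 9 RAB genes (14.3%, 6.75 to 25.4) had a suspended summit, beside 13.8% of all protein-coding genes and 14.6% at the same spans. RAB genes therefore held suspended SPIB peaks about as often as protein-coding genes at large. In attached cells 2 RAB genes (3.17%, 0.387 to 11.0) had a peak in the wider window, beside 1.86% of all protein-coding genes. RAB37, the 1 attached member at a gene end (1.59%, 0.0402 to 8.53), stood beside 0.809% of all. The intervals cover counting error only, and the attached ones reach from below these shares to several times above them.

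**Figure D1:**
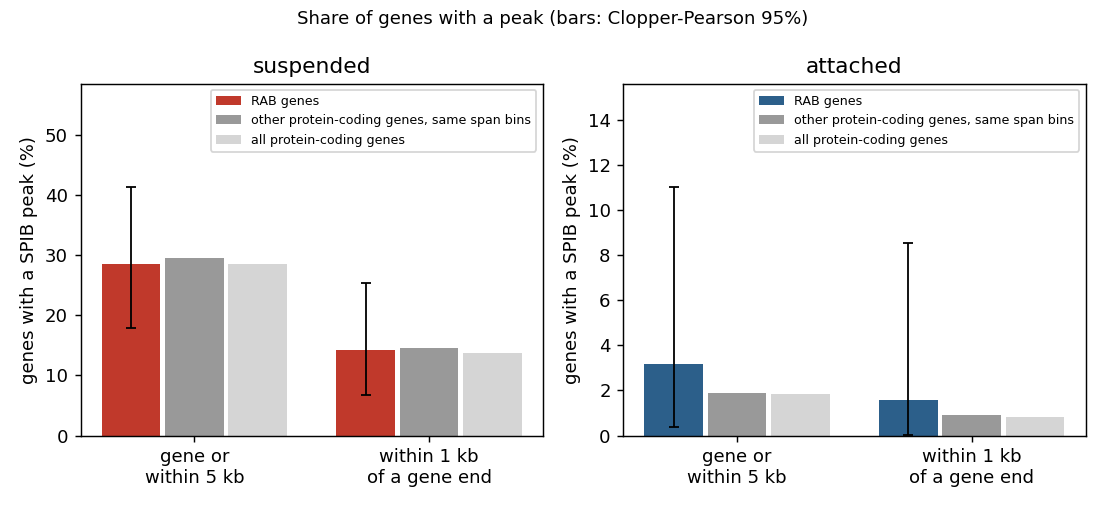
Percent of genes with a SPIB peak in suspended cells (left) and attached cells (right), for the 63 RAB genes, other protein-coding genes of the same span bins and all protein-coding genes, with Clopper-Pearson 95% intervals on the RAB bars. In suspended cells the 3 shares are 28.6%, 29.5% and 28.6% over the gene and 5 kb, and the attached axis is finer.

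The 18 genes held 24 suspended peaks, and 6 genes held 2 each. Of these peaks 9 lay within 1 kb of a gene end, 4 deeper inside the gene and 11 in the flanks. They held 8 to 45 tags (median 16, beside 15 in the whole suspended list), at an authors' fold of 4.39 to 16.39 (median 9.86, beside 9.1). This fold is how far, in the authors' calling, the ChIP tags exceeded those in the input nearby. At 17 of the 24 peaks (70.8%) the FDR was at most 5%, beside 76.8% of the whole list. In strength, the RAB peaks were ordinary members of the list.

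**Figure D2:**
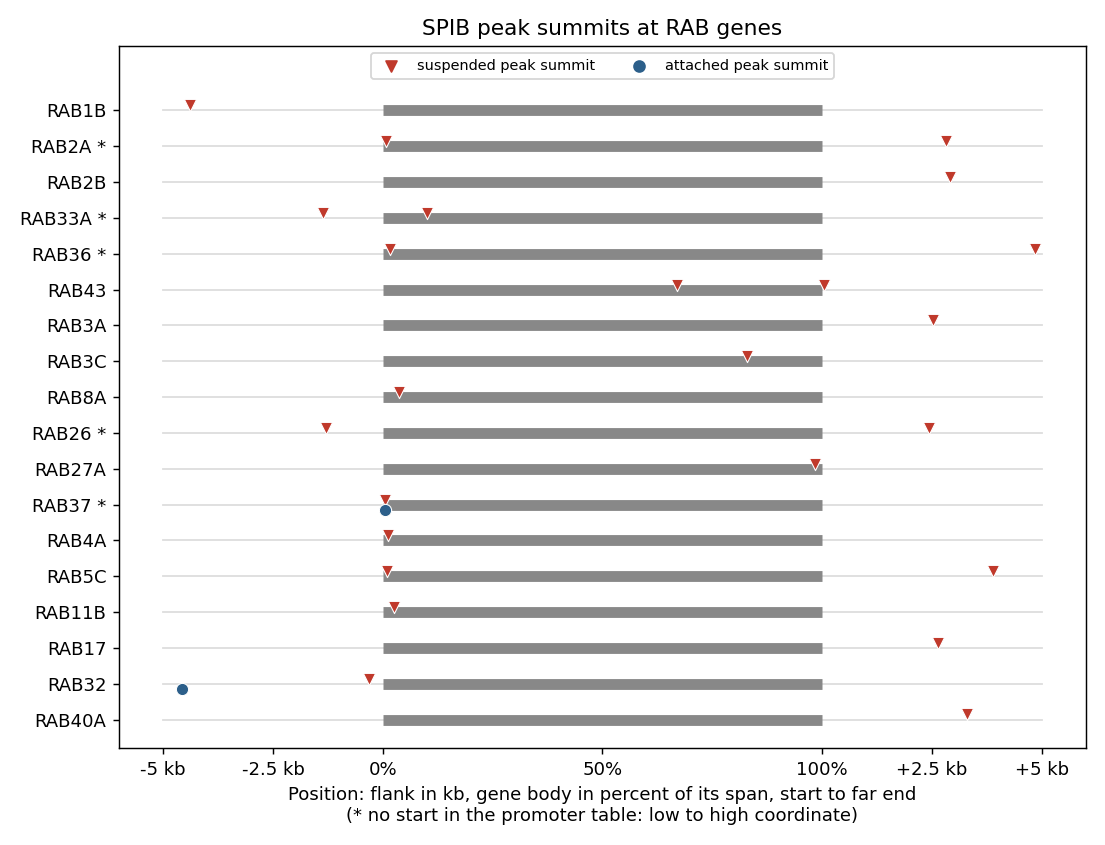
Summits of suspended (triangles) and attached (circles) peaks at the 18 RAB genes with a peak, with flanks in kb and each gene body scaled to its span, drawn from the start or, at the 5 genes marked *, from low to high coordinate. Summits gather at the left edge of the body in RAB2A, RAB36, RAB8A, RAB37, RAB4A, RAB5C and RAB11B, and the 2 attached summits are at RAB37 and RAB32.

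For 50 RAB genes the promoter table gives the start. A suspended summit lay within 1 kb of the start in 5 of them, beside 13.3% of 15843 protein-coding genes with an entry. At the far end RAB43 alone had one (2.0%), beside 1.75%. The 5 genes bound at the start were RAB4A, RAB5C, RAB8A, RAB11B and RAB32. The 13 without an entry were RAB1A, RAB2A, RAB12, RAB15, RAB20, RAB26, RAB33A, RAB33B, RAB36, RAB37, RAB38, RAB39B and RAB44.

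Endosomal RAB genes were represented by RAB5C, RAB11B, RAB4A and RAB17, 4 of 16 members (with 29.2% at the same spans), and 3 of them at the start. RAB5C, which acts on early endosomes, had the peak with most tags, 45 (Poisson 95% interval 32.8 to 60.2) in 825 bp on chromosome 17 from 42154563 to 42155387 (coordinates throughout are hg38). Its fold was 5.21 and its FDR 0.98%. The summit lay 322 bp inside the start. A further RAB5C peak of 41 tags (29.4 to 55.6) lay 3885 bp beyond the far end, inside KAT2A, a histone acetyltransferase gene, and 273 bp from the start of that gene. It was 636 bp wide, with an FDR of 3.98% and a fold of 4.39, the lowest among the suspended RAB peaks.

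RAB11B, a recycling endosome GTPase, had 33 tags (22.7 to 46.3) at chromosome 19, 8390558 to 8391083, with a fold of 10.92 and an FDR of 0%. The summit was 348 bp inside RAB11B. RAB4A, which acts in fast recycling, had 19 tags (11.4 to 29.7) at chromosome 1, 229271329 to 229271663, 403 bp inside the gene, with a fold of 9.1. An antisense gene on the opposite strand starts near each site, 17 bp from the summit for RAB11B-AS1 and 360 bp for RAB4A-AS1. RAB17, an epithelial RAB of polarised trafficking, had 9 tags (4.1 to 17.1) at 2646 bp beyond its far end, at an FDR of 5.92%. The other 12 endosomal members, RAB5A, RAB5B, RAB4B, RAB11A, RAB14, RAB15, RAB20, RAB21, RAB22A, RAB25, RAB31 and RAB35, had no peak in either list.

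Secretory RAB genes had a suspended peak in 6 of 13 members (46.2%, with 31.7% at the same spans), of which RAB8A and RAB37 had it at a gene end (15.4%, with 13.6%). With 13 members the count is a description. RAB8A, RAB26 and RAB27A were counted only through peaks of FDR above 5%. RAB37, tied to exocytosis of granules, held 18 tags (10.7 to 28.4) at chromosome 17, 74671300 to 74671556, 319 bp inside the low-coordinate end, with a fold of 12.02 and an FDR of 1.17%. RAB8A, which acts in exocytosis and in cilium assembly, had 10 tags (4.8 to 18.4) at 847 bp inside the start, with an FDR of 6.42%, the highest in the list. Both are gene-end sites, of which the RAB37 site had more tags and the lower FDR.

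The remaining secretory sites lay away from gene ends. RAB3C, a synaptic vesicle RAB, had 11 tags (5.5 to 19.7) 47054 bp from its nearer end in a span of 277243 bp. RAB27A, which acts in melanosome transport and exosome release, had 8 tags (3.5 to 15.8) 1725 bp inside its far end. RAB3A, the main RAB of synaptic vesicles, had 22 tags (13.8 to 33.3) 2537 bp beyond its far end and inside the neighbour MPV17L2, so that position alone does not tie the site to RAB3A. RAB26, a secretory granule RAB, had 9 tags (4.1 to 17.1) 1289 bp outside its low-coordinate end and 15 tags (8.4 to 24.7) 2441 bp outside the other, where the site lies inside TRAF7. The FDR was 5.65% at RAB27A and 6.29% and 6.4% at the RAB26 sites, beside 4.02% at RAB3C and 1.41% at RAB3A. RAB3B, RAB3D, RAB8B, RAB10, RAB13, RAB27B and RAB44 had no peak.

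RAB genes of the endoplasmic reticulum and Golgi had a suspended peak in 6 of 19 members (31.6%, with 27.8% at the same spans). In 3 of them it lay at a gene end (15.8%, with 14.5%). RAB2A, an early secretory pathway RAB also known in autophagosome and lysosome fusion, had 17 tags (9.9 to 27.2) at chromosome 8, 60517436 to 60517755, 682 bp inside the low-coordinate end, with a fold of 14.25 and an FDR of 0.18%. RAB43, a Golgi RAB, had 21 tags (13.0 to 32.1) at chromosome 3, 129087224 to 129087594, 43 bp beyond its far end, with a fold of 14.25. RAB36 had 17 tags (9.9 to 27.2) at chromosome 22, 23145589 to 23145873, 394 bp inside the low-coordinate end and also inside RSPH14, which overlaps it. RAB2A and RAB36 were thus bound at one edge of the gene, and RAB43 at the opposite edge from its start.

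Each of these 3 genes had another peak of fewer tags. It held 8 tags (3.5 to 15.8) 2819 bp outside RAB2A and 11 tags (5.5 to 19.7) 11430 bp inside RAB43. At RAB36 it lay 4848 bp outside the gene and inside RSPH14. That peak held 15 tags (8.4 to 24.7) at a fold of 10.51, close to the 17 tags and fold of 10.74 of the gene-end peak. The readthrough gene ISY1-RAB43 spans the RAB43 body, so the inner site belongs to both annotations. The other 3 Golgi members had no gene-end site. RAB33A, a RAB known to bind the autophagy protein ATG16L1, had 14 tags (7.7 to 23.5) 7422 bp inside the gene. Its other peak, of 20 tags (12.2 to 30.9), lay 1354 bp outside and inside ELF4, itself an ETS-family factor gene, 2589 bp from an end of it.

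RAB1B and RAB2B were counted through peaks of neighbours. RAB2B had 33 tags (22.7 to 46.3) at 2919 bp beyond its far end, which is 22 bp from an end of CHD8, a chromatin remodeller gene. RAB1B, a RAB of transport from the endoplasmic reticulum, had 12 tags (6.2 to 21.0) 4386 bp before its start and inside KLC2, a kinesin light chain gene. RAB1A, RAB6A, RAB6B, RAB6C, RAB6D, RAB18, RAB19, RAB30, RAB33B, RAB34, RAB39A, RAB39B and RAB41 had no peak. In all, 7 of the 24 suspended peaks lay nearer to another protein-coding gene than to the RAB gene, and 2 lay inside both.

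Late endosome and lysosome RAB genes had a suspended peak in 1 of 10 members (with 28.7% at the same spans). The member was RAB32, which acts on melanosomes and mitochondria, with 23 tags (14.6 to 34.5) at chromosome 6, 146543357 to 146543622, 317 bp before the start. Its fold of 16.39 was the highest among the suspended RAB peaks, and its FDR was 0%. RAB7A, the RAB of autophagosome and lysosome fusion, had no peak, and its nearest suspended summit lay 51454 bp from the gene. RAB7B, RAB9A, RAB9B, RAB12, RAB24, RAB29, RAB38 and RAB42 had none either. The title of the series names the autolysosomal process, and with 10 members the count is a description.

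Of the remaining members, RAB40A, a substrate receptor of a ubiquitin ligase, had 9 tags (4.1 to 17.1) 3307 bp beyond its far end at an FDR of 4.65%. RAB40B and RAB40C, and the ciliary RAB genes RAB23 and RAB28, had no peak.

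**Figure D3:**
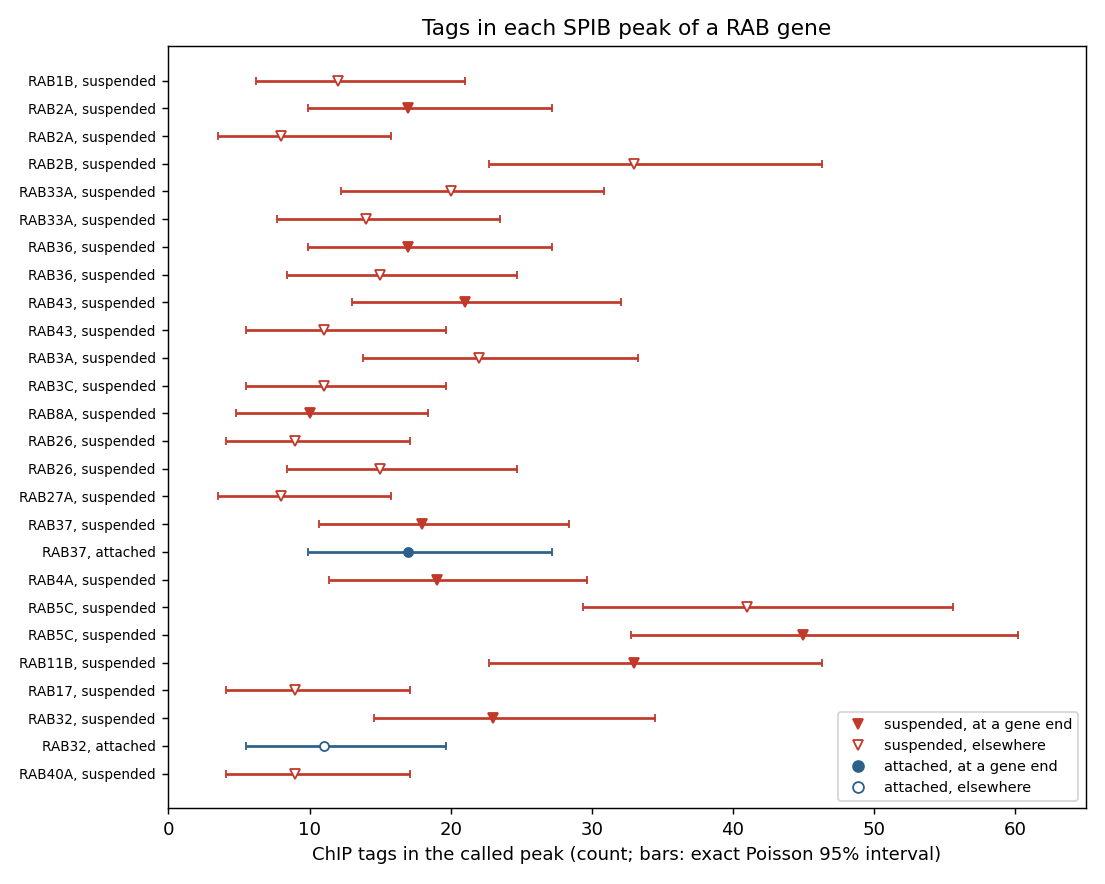
ChIP tags in each called peak of a RAB gene (points) with exact Poisson 95% intervals (bars), filled where the summit lies within 1 kb of a gene end. The RAB5C peaks hold the most tags, 41 and 45, in 636 and 825 bp and at folds of only 4.39 and 5.21. The suspended and attached peaks of RAB37, at 18 and 17 tags, have overlapping intervals.

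The attached list held 2 members. RAB37 was the 1 gene whose site was called in both conditions. Its peak held 18 tags in suspended cells and 17 tags (9.9 to 27.2) in attached cells, at summits 10 bp apart. After scaling by the filtered tags of each library the ratio of suspended to attached was 1.08 (exact interval 0.523 to 2.22, counting error only). The ratio is a description, since each condition had 1 library and the site was picked because both lists called it. The attached peak was called at a fold of 15.52 and an FDR of 100%, against 12.02 and 1.17% for the suspended peak, and folds from different lists are not comparable.

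RAB32 had peaks called at different places in the conditions. The suspended peak lay 317 bp before the start, whereas the attached peak, with 11 tags (5.5 to 19.7), a fold of 20.46 and an FDR of 100%, lay 4562 bp before it. Their summits were 4245 bp apart, and neither was called in the other list. Signal at each place in the other condition was not measured, so a change of site is not shown. Both attached RAB peaks thus had the highest FDR that the caller gives.

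RAB genes with a named antisense gene were counted separately, a choice made after the values were seen. RefSeq names an antisense gene (suffix AS1) after 8 of the 63 RAB genes, and 4 of these had a suspended summit within 1 kb of a gene end, namely RAB4A, RAB5C, RAB11B and RAB37. Among 1781 protein-coding genes with such a partner the share was 13.8%. The others, RAB6C, RAB12, RAB33B and RAB35, had none. With 8 genes this is a description, and the antisense start was placed near the summit for RAB11B and RAB4A only.

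Promoter windows were found at the outer start of 46 RAB genes. The word GGAAGT, searched on both strands, occurred in 18 of them (39.1%), beside 3456 of 13820 protein-coding windows of the same length. CGGAAGT occurred in 9 (19.6%), beside 10.3%, and GAGGAAGT in 1 (2.17%), beside 2.45%. These words overlap, since each contains GGAA, which 95.3% of all windows held. Across protein-coding genes CGGAAGT was in 17.4% of windows with a suspended summit within 1 kb of the start and in 9.12% of those without one. Among RAB genes it was in 1 of the 5 bound starts, RAB5C, and in 8 of the 41 without a peak (19.5%). The bound RAB starts were rich in CpG, with a median of 32 CpG (range 29 to 45) per window, beside 24 (2 to 52) in the 41 others, and 26 beside 21 in all protein-coding windows. The summits themselves lay 317 to 847 bp from the start and so outside the windows. A word in a window is a description, not a binding site.

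Some RAB numbers are shared by several lettered genes. These 14 families hold 34 members, of which 12 (35.3%, beside 28.6% of all protein-coding genes) had a suspended peak, spread over 10 families. RAB2 was the family with every gene counted, RAB2B by way of the CHD8 site, and RAB3 had 2 of 4. At the gene ends 5 of the 34 had a summit (14.7%), beside 13.8% of all protein-coding genes.

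For the 45 RAB genes without a peak, the nearest suspended summit lay 7703 to 450207 bp from the gene (median 87504 bp), and beyond 50 kb in 33 of them. These distances were not measured for other protein-coding genes without a peak, so they are not shown to be particular to RAB genes. Just outside the window of 5 kb were RAB34 (7703 bp), RAB5B (8092 bp) and RAB4B (9849 bp), and just inside were RAB1B (4386 bp), RAB40A (3307 bp) and RAB2B (2919 bp). At the limit of 1 kb from a gene end, RAB8A (847 bp) was just inside, and RAB26 (1289 bp) and RAB33A (1354 bp) just outside.

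**Figure D4:**
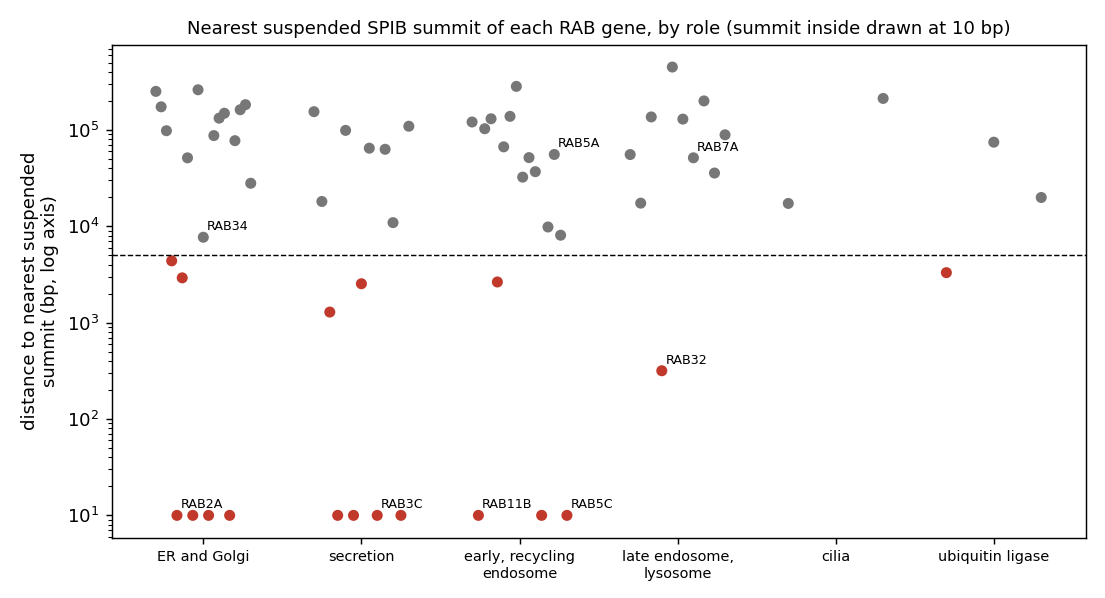
Distance in bp (log axis) from each of the 63 RAB genes to the nearest suspended summit, by role, with genes inside the 5 kb window in red and genes with a summit inside their span drawn on the lowest row. RAB32 is the late endosome and lysosome member under the dashed line at 5 kb, and RAB7A lies at 51454 bp.

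Genes for RAB prenylation and GDI proteins, exchange factors, GTPase-activating proteins and effectors were counted in the same way. Of 135 such genes 56 (41.5%) had a suspended peak in the gene or within 5 kb. They are longer than RAB genes, with a median span of 68913 bp beside 30011 bp, and other protein-coding genes of their spans had one in 34.7%. At gene ends the count was 21 of 135 (15.6%), with 13.9% at the same spans. Attached peaks were found at 3 of them (2.22%, beside 1.86% of all protein-coding genes), and none at a gene end (beside 0.809%).

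Among the genes for RAB prenylation and GDI proteins, 2 of 8 had a suspended peak (with 25.9% at the same spans), both at a gene end (with 13.4%). GDI2, which extracts GDP-bound RAB proteins from membranes, had 46 tags (33.7 to 61.4) at a fold of 7.28, and RABAC1, a prenylated RAB acceptor, had 33 tags (22.7 to 46.3) at 7.71. GDI2 and RABAC1 are thus sites of the same size as the larger RAB peaks.

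Exchange factor genes had a suspended peak in 16 of 43 members (37.2%, with 34.5% at the same spans), 6 of them at a gene end (with 14.2%). These 6 were RGP1 (fold 9.54), DENND4B (9.36), TRAPPC9 (8.14), MADD (7.71), HPS1 (6.7) and DENND5B (4.23). MADD activates RAB3 and RAB27 proteins, and RGP1 is part of the RAB6 exchange factor. RABGEF1, which activates RAB5, had suspended peaks away from its ends and an attached peak of 24 tags (15.4 to 35.7) at an FDR of 54.46%.

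Genes of GTPase-activating proteins had one in 18 of 39 (46.2%, with 35.8%), 8 of them at a gene end (20.5%, with 13.8%). The 6 of highest fold there were TBC1D10A (8.74), TBC1D10B (8.19), TBC1D7 (7.8), TBC1D14 (7.38), TBC1D2B (7.32) and TBC1D22A (6.53). TBC1D7 is known as a subunit of the TSC complex that restrains MTOR signalling, and TBC1D14 as a regulator of autophagosome formation. TBC1D12 had the attached peak of this group, with 20 tags (12.2 to 30.9) at an FDR of 100%.

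Effector genes had a suspended peak in 20 of 45 members (44.4%, with 35.8%), but at a gene end in 5 (11.1%, with 13.9%). Those 5 were APPL2 (fold 16.48), GCC2 (9.1), LRRK1 (8.94), SYTL2 (8.82) and BICD1 (5.01). APPL2, a RAB5 effector on early endosomes, had 22 tags (13.8 to 33.3), and BICD1, a dynein adaptor for RAB6, had 122 tags (101.3 to 145.7) in a peak 1606 bp wide. RAB11FIP4, an effector of RAB11, had 34 tags (23.5 to 47.5) in suspended cells and 19 tags (11.4 to 29.7) in attached cells away from its ends. The FDR was 0% for the suspended RAB11FIP4 peak and 100% for the attached one. These peaks were 231 and 318 bp wide, so the counts are not like for like.

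**Figure D5:**
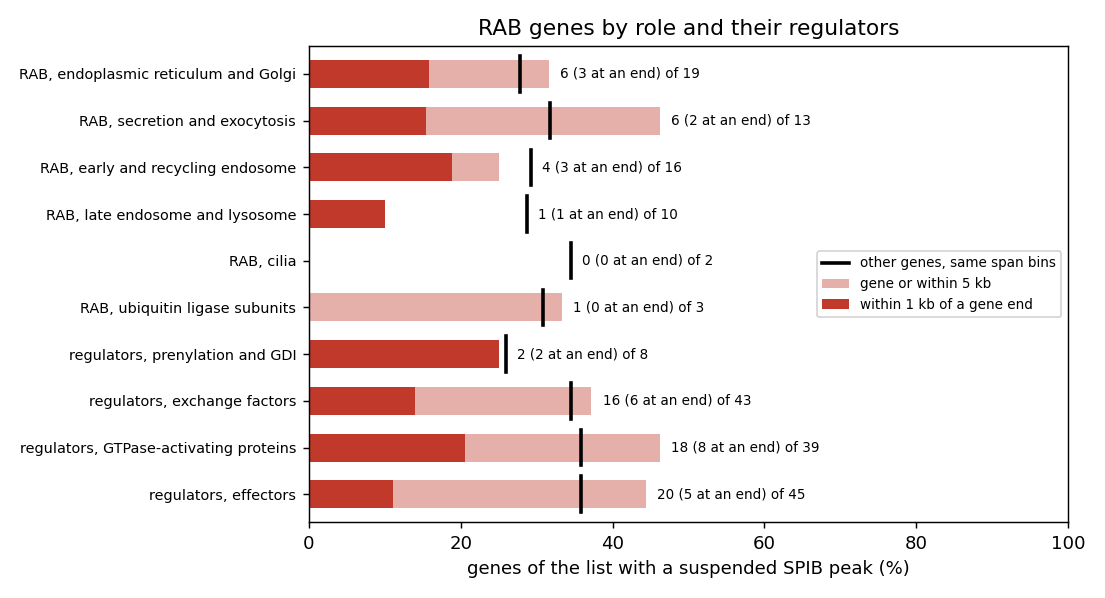
Percent of the genes of each list with a suspended SPIB peak in the gene or within 5 kb (light) and within 1 kb of a gene end (dark), with the share of other protein-coding genes of the same span bins over the wider window as a black line. RAB genes of late endosomes and lysosomes lie left of their line with 1 of 10, and secretory RAB genes right of theirs with 6 of 13. Both groups are small, and the secretory genes RAB8A, RAB26 and RAB27A were counted only through peaks of FDR above 5%.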

How the data were processed

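The authors called peaks with MACS 1.4.2, setting each ChIP against its own input, at a p cutoff of 1e-05 and with 1 tag kept per position, per the file headers. The build is hg38 (per the submitters' processing notes). No aligner is named in the labels or headers. Each deposited list gives a count of tags per peak (not normalized), the authors' fold as a ratio to the local background, the authors' score (minus 10 times log10 p, read from its place because the column name was lost) and the authors' FDR in percent. The MACS fragment lengths were 63 bp (suspended) and 58 bp (attached), near the tag size of 50 bp, and the effect of this on peaks was not tested.

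Summits were assigned in pandas 2.3.3 and numpy 2.4.6 (Python 3.11.15, with SciPy 1.17.1 for intervals and matplotlib 3.10.9 for figures) to gene spans of RefSeq GRCh38.p14, the assembly that hg38 names. A gene end is either edge of the span. Starts and promoter sequences are RefSeq's. Strand was found for 50 of the 63 RAB genes. The span-matched share is the mean, over the genes of a list, of the percent of other protein-coding genes with a peak in the same of 20 span bins. The counting was tested on simulated data. Intervals are exact and cover counting error only. Peaks of both lists were called shared at an overlap of at least 1 bp. All RAB genes with a peak are named, and of the regulators those at a gene end, up to 6 per list by fold. RABGEF1, TBC1D12 and RAB11FIP4 were added for their attached peaks after the values were seen. The members, the role groups and the lists were chosen with earlier results of these data known, and the role groups rest on textbook roles. The alternatives are given in the closing section.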

Additional observations from a re-analysis of the deposited data

How the results depend on the processing

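The suspended count of 18 RAB genes was 13 with a flank of 2 kb (20.6%, beside 26.2% of all protein-coding genes, the widest gap of these settings), 21 with 10 kb (33.3%, beside 32.2%), 14 at an FDR of at most 5% (22.2%, beside 24.2%), and 18 by any overlap of the peak region. Among peaks above the median of the list by score it was 11 (17.5%, beside 18.0%). Counting only peaks closest to the RAB gene gave 14, and 15 with ties kept, an alternative chosen after seeing the data. No share over all protein-coding genes was computed for these rules or for the overlap rule, here or at gene ends. The count of 9 at gene ends was 7 within 500 bp (11.1%, beside 10.1%), 12 within 2 kb (19.0%, beside 16.7%), 8 at an FDR of at most 5% (12.7%, beside 12.0%), 8 above the median score (12.7%, beside 9.43%), and 8 or 9 under the others. The 2 attached genes fell to 1 with a flank of 2 kb (1.59%, beside 1.63% of all protein-coding genes). They fell to 0 at an FDR of at most 5% (beside 0.105%) and above the median score (beside 0.988%). The 1 at a gene end fell to 0 in these last settings too (beside 0.0399% and 0.464%). The drops to 0 follow because both attached RAB peaks had an FDR of 100% and scores below the median. RAB37 was shared under the stricter overlap rule too. Its ratio per bp was 1.11, and the span-matched share was 29.5% with 10 bins and 28.6% without matching. Depth limits these results: most RAB peaks held fewer than 20 tags, and 1 library per condition gives no replicate error. No paired analysis was possible because each group has 1 library.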
